A study of Mus musculus with 12 samples.

Results

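The 8 genes described here encode the MHC class I molecule and the machinery that loads it with peptide: B2m, H2-K1, H2-D1, H2-Q4, H2-Q7, Tap1, Tap2 and Tapbp. They are defined by name for this shared function, and the rule itself uses no measured value, though it was set with earlier results of these data known. They are 8 of the 12855 genes with at least 1 annotated transcript listed for every library, and all 8 are among the 11500 genes that reached 1 FPKM (fragment counts scaled by transcript length and library size) in at least 4 libraries and were tested. H2-Q7 reached 1 FPKM in 1 Control library and Tap1 in 2, so both passed this limit through the libraries of LPS-treated mice.

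A class I molecule displays short peptides from the inside of the cell to CD8 T cells and natural killer cells. It consists of a membrane-bound heavy chain, made in the mouse by genes of the H2 complex, and of the small invariant chain beta-2-microglobulin. Peptides cut by the proteasome are pumped into the endoplasmic reticulum by the transporter TAP, a pair of Tap1 and Tap2, and are placed in the groove with the help of tapasin, the product of Tapbp. Nearly all nucleated cells carry class I molecules, cardiomyocytes at low levels, and interferons and NF-kB are known inducers of their genes.

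Total RNA of the heart, depleted of ribosomal RNA, was sequenced from wild-type C57BL/6 mice in 3 groups of 4 libraries, all treated over 3 days. Control mice received saline in place of both agents, LPS mice received lipopolysaccharide, the endotoxin of Gram-negative bacteria, at 10 mg/kg with saline, and LPS+XJDHT mice received LPS at 10 mg/kg with XJDHT, the herbal formula Xijiao Dihuang decoction, at 50 mg/kg per day. No group received XJDHT without LPS, and the labels state neither the age nor the sex of the mice. In bulk heart RNA, fewer cells of a type and less RNA per cell cannot be told apart.

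Depth was even, with 73.8 to 77.8 M fragments per library (M, mega) as recovered from the spacing of the values. Markers of cardiomyocytes, the labelled tissue's main contractile cell, summed to 14079 to 15832 FPKM in Control, 6074 to 7876 FPKM in LPS and 5406 to 8042 FPKM in LPS+XJDHT. After LPS 4 of these 7 markers fell, Myh6, Tnni3, Actc1 and Myl2, and 3 did not pass, Tnnt2, Ryr2 and Pln, with ratios of means of 0.972, 0.9795 and 0.856. Of all genes tested 12.1% were called lower. The summed level of 4 Y-linked genes was 0.205 FPKM in LPS+XJDHT replicate 2 and 20.4 to 61.9 FPKM in the other 11 libraries. That library also had the lowest value of its group in 8 of the 8 class I genes, and the members, the lists and the proportions of smallest p in comparisons that use it are therefore also given without it. Scaling every library by its median ratio to the average library, in place of the FPKM scaling, moved the median log2 change of all genes by -0.16 for LPS against Control, and with it the calls from 3064 higher and 1386 lower genes to 2122 higher and 2149 lower.

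The comparison of LPS with Control asks how endotoxin changed these genes in the heart. All 8 rose (limma on log2(FPKM + 1), adjusted over all genes, threshold 0.05), and in 7 of the 8 every LPS library lay above every Control library, Tap2 being the one with overlapping groups. Among all genes tested 26.6% were called higher, 12.1% lower, and 25.3% were higher with no overlap between the groups. The median log2 fold change was 2.24 over the 8 genes and 0.16 over all genes, and each member exceeded 97.4% to 99.2% of all genes in log2 fold change. With median-ratio scaling all 8 were again called higher, with a median of 2.04.

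B2m, on chromosome 2 (mouse build GRCm38, 122147686 to 122153083, plus strand), encodes the invariant light chain and had the highest level per length of the 8 in every group. It was at 232, 274, 198 and 300 FPKM in Control replicates 1 to 4, at 1297, 1124, 1238 and 1240 FPKM in LPS, and at 1374, 795, 1368 and 1303 FPKM in LPS+XJDHT. The lowest LPS library thus stood well above the highest Control library, and the 4 LPS libraries lay close together. The mean rose from 251 ± 45.0 to 1225 ± 72.6 FPKM (SD, n = 4), a ratio of 4.88 and a log2 fold change of 2.30 ± 0.18 (SE, limma adjusted p = 3.4e-06). All of this signal came from the single annotated B2m transcript.

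H2-K1 and H2-D1 encode the heavy chains of the classical class I molecules K and D, which present peptide to CD8 T cells. H2-K1 lies on chromosome 17 at 33996017 to 34000347 on the minus strand and H2-D1 at 35262730 to 35267499 on the plus strand. H2-K1 was at 57.9, 58.2, 34.7 and 82.4 FPKM in Control libraries, at 356, 313, 161 and 314 FPKM in LPS, and at 344, 218, 347 and 356 FPKM in LPS+XJDHT. LPS replicate 3 was the low one of its group, yet still above every Control library. The log2 fold change of H2-K1 was 2.28 ± 0.29 (SE, n = 4 per group, limma adjusted p = 0.00012), from a mean of 58.3 ± 19.5 to 286 ± 85.5 FPKM. H2-D1 was at 52.7, 54.7, 49.3 and 57.4 FPKM in Control libraries, at 286, 217, 239 and 263 FPKM in LPS, and at 314, 181, 289 and 283 FPKM in LPS+XJDHT. Its Control libraries lay within a narrow range, its LPS libraries lay above all of them, and its log2 fold change of 2.20 ± 0.15 (SE, limma adjusted p = 1.9e-06) had the smallest error of the 8. The levels of H2-K1 and H2-D1 overlapped within each of the 3 groups.

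H2-Q4 and H2-Q7 are heavy chain genes of the neighbouring Q region, whose products are counted among the non-classical class I molecules. H2-Q4 lies on chromosome 17 at 35379617 to 35385290 and H2-Q7 at 35439155 to 35443773, both on the plus strand. H2-Q4 was at 11.3, 12.4, 10.5 and 17.2 FPKM in Control libraries, at 81.1, 84.7, 54.7 and 65.1 FPKM in LPS, and at 86.2, 50.8, 86.9 and 93.9 FPKM in LPS+XJDHT. Its level lay below those of H2-K1 and H2-D1 and above those of the other 4 members in every group, with no overlap of ranges, and its log2 fold change after LPS was 2.39 ± 0.22 (SE, limma adjusted p = 1e-05). H2-Q7 was at 0.625, 0.581, 0.515 and 1.32 FPKM in Control libraries, at 2.22, 7.48, 8.35 and 4.64 FPKM in LPS, and at 8.83, 1.72, 8.67 and 6.05 FPKM in LPS+XJDHT. H2-Q7 was scarce in Control and varied more between libraries of one group than H2-Q4 did, with a log2 fold change of 1.83 ± 0.42 (SE, limma adjusted p = 0.0053). The pseudocount of 1 bears on this value, since the ratio of the mean FPKM was 7.46 for H2-Q7 and 5.55 for H2-Q4.

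**Figure D1:**
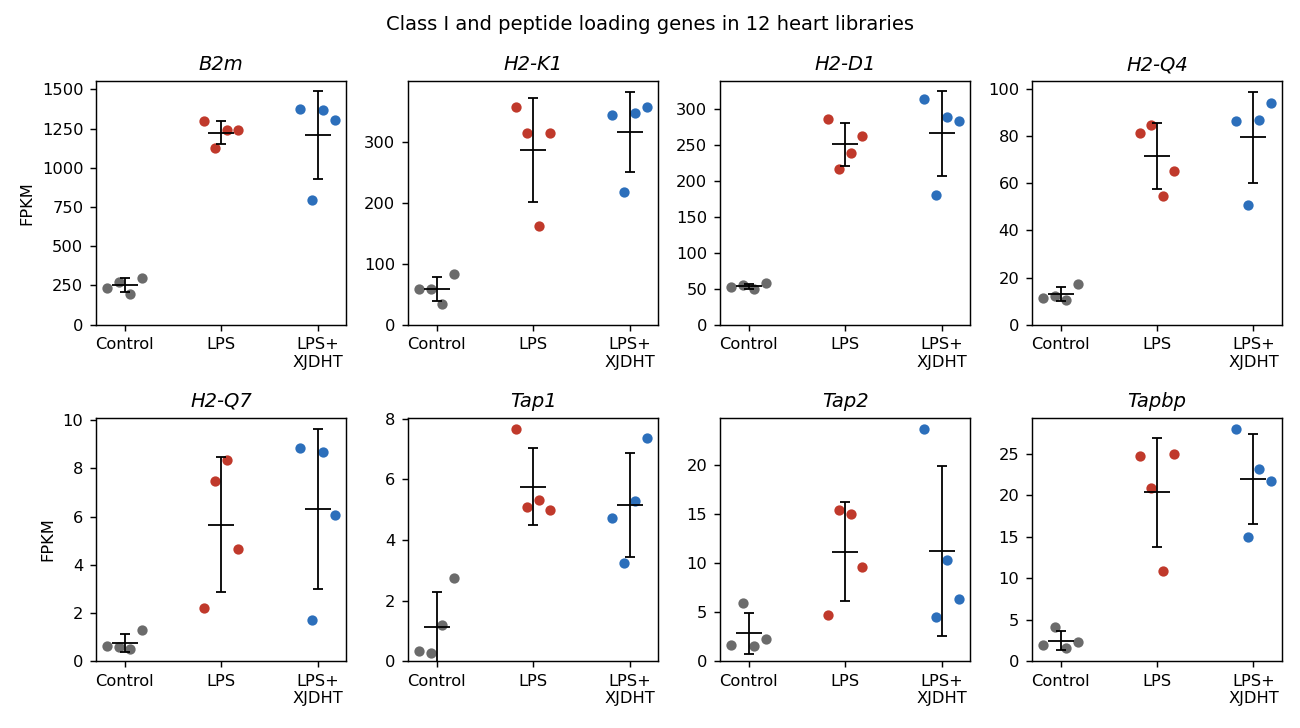
Level of each of the 8 genes in FPKM (vertical linear axes from 0) in the 4 Control, 4 LPS and 4 LPS+XJDHT libraries, 1 point per library, with the group mean and SD in black. Apart from Tap2, where Control 2 at 6.00 FPKM lies above LPS 1 at 4.69 FPKM, the LPS points of each gene lie above its Control points, and LPS+XJDHT replicate 2 is the lowest of its group in every panel.

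The proximal promoters of the light and heavy chain genes are a textbook example of shared design. Their known elements include an NF-kB site and an interferon-response element bound by IRF factors. A module of X and Y boxes, used by Nlrc5 and the RFX and NF-Y proteins, is another. RefSeq start sites (GRCm38.p6) matched 7 of the 8 members, Tap2 not being matched. In the 250 bases before each start, both strands were searched for the NF-kB consensus, the IRF core AANNGAAA and the GC box GGGCGG. The letters TGACG, as in an X2 box core, and CCAAT, as in a Y box, were also searched. No order or spacing was required. B2m, H2-K1, H2-D1, H2-Q4 and H2-Q7 each held an NF-kB, an IRF core, a TGACG and a CCAAT match, against 3.92%, 21.3%, 17.9% and 33.8% of 32526 distinct promoters. Sequences are printed only for members with both an NF-kB and an IRF core match, so that choice fixes these matches in them. All 8 members rose after LPS, so the rise did not set the printed genes apart. Capitals mark the matches on either strand, overlapping NF-kB matches being merged, and each sequence is written 5′ to 3′ along the gene, with the NF-kB and IRF matches at its left end. For H2-D1 only these 2 matches are printed, since the window lies in an annotated exon of a longer transcript. The stretches are chr2:122147544-122147644 (plus strand) for B2m, chr17:34000353-34000464 (minus) for H2-K1, chr17:35262923-35262951 (plus) for H2-D1, chr17:35379437-35379572 (plus) for H2-Q4 and chr17:35439016-35439149 (plus) for H2-Q7.
B2m: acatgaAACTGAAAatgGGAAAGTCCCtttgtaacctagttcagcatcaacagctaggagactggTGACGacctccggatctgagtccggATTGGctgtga
H2-K1: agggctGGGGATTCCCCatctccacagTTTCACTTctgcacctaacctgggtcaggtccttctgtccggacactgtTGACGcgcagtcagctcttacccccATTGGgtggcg
H2-D1: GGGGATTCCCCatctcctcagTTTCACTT
H2-Q4: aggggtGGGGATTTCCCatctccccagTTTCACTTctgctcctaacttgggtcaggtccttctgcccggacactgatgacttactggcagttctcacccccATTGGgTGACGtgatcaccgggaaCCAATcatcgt
H2-Q7: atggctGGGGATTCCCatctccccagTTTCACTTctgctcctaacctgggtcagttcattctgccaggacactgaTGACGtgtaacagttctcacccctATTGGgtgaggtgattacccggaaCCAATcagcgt

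In the 4 heavy chain genes the NF-kB match came first and the IRF core followed on the other strand as TTTCACTT, while in B2m the IRF core came first. The Tap1 window held X2 box, Y box and GC box matches and no NF-kB or IRF core match, and the Tapbp window held 2 Y box matches and a GC box, the last found in 33.0% of all promoters. Tap1 and the immunoproteasome gene Psmb9 lie head to head on opposite strands, their RefSeq start sites 226 bases apart. A match is a description of the letters and no measured binding.

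The heavy chain genes share stretches of sequence, so that the authors' quantification may have split fragments between them. Of all 50-base words in the main H2-K1 transcript 8.79% also occur in another of 44 other H2 genes, against 11.98% for the main transcript of H2-D1, 16.5% for that of H2-Q4, and 36.7% and 15.4% for the transcripts H2-Q7-201 and H2-Q7-204. H2-Q7-201 was below 0.5 FPKM in all libraries but LPS replicate 2, where it was at 4.21 FPKM. The sum of the 4 members' FPKM, on which a split among them bears less, went from 125 ± 25.9 to 614 ± 110 FPKM (SD, n = 4). Pooling 9 heavy chain genes of the K, D and Q regions into 1 value gave a log2 fold change of 2.29 (limma adjusted p = 8.1e-06).

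Tap1 and Tap2 encode the subunits of the peptide transporter, and both were at low levels. Tap1, at 34187553 to 34197225 on chromosome 17, was at 0.348, 0.261, 1.21 and 2.75 FPKM in Control libraries, at 7.65, 5.08, 5.31 and 4.98 FPKM in LPS, and at 4.73, 3.26, 5.28 and 7.38 FPKM in LPS+XJDHT. The Control libraries spread widely, but none reached the lowest LPS library, and the log2 fold change was 1.78 ± 0.33 (SE, n = 4 per group, limma adjusted p = 0.0012). Tap2, at 34203527 to 34216321 on the same strand, was at 1.68, 6.00, 1.56 and 2.24 FPKM in Control libraries, at 4.69, 15.4, 15.1 and 9.65 FPKM in LPS, and at 23.7, 4.50, 10.3 and 6.38 FPKM in LPS+XJDHT. Control replicate 2 lay above LPS replicate 1, and the log2 fold change of 1.67 ± 0.50 (SE, limma adjusted p = 0.020) had the largest error of the 8. This call did not hold without Control replicate 1, Control replicate 3 or LPS replicate 2, with adjusted p of 0.053, 0.055 and 0.054, nor with limma-voom on the recovered fragments (adjusted p = 0.059).

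The Tap2 signal came from 2 transcripts, and they differed in behaviour. The protein-coding Tap2-201 was at 0.944, 6.00, 1.44 and 1.71 FPKM in Control libraries and 0.170, 8.13, 6.12 and 1.35 FPKM in LPS, so the groups overlapped, with 2 LPS libraries above and 1 below all Control libraries. Tap2-202, annotated as a retained intron and not as coding, was at 0.740, 0, 0.115 and 0.525 FPKM in Control libraries, at 4.52, 7.26, 8.94 and 8.30 FPKM in LPS, and at 11.95, 2.43, 8.21 and 3.79 FPKM in LPS+XJDHT, with no overlap with Control. Counting coding transcripts alone, Tap2 had a log2 fold change of 0.25 and was not called (limma adjusted p = 0.81), while the other 7 members were called higher. The coding share of the Tap2 FPKM was 56.0% to 100% in Control, 3.61% to 52.8% in LPS and 20.5% to 49.6% in LPS+XJDHT. Both transcripts overlap along the gene, so how the authors' quantification divided their fragments bears on these shares. That part was not tested.

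Tapbp, at 33915899 to 33929292 on chromosome 17, encodes tapasin, which holds the empty class I molecule at the transporter. It was at 1.94, 4.13, 1.65 and 2.29 FPKM in Control libraries, at 24.7, 20.8, 10.9 and 24.9 FPKM in LPS, and at 28.0, 14.9, 23.2 and 21.8 FPKM in LPS+XJDHT. Even LPS replicate 3, the lowest of its group, lay above every Control library, and the mean rose from 2.50 ± 1.12 to 20.3 ± 6.60 FPKM (SD, n = 4). The log2 fold change was 2.59 ± 0.29 (SE, limma adjusted p = 4.4e-05) and the ratio of means 8.12, both the largest of the 8. The coding transcript Tapbp-201 carried 75.4% to 87.3% of the signal in Control and 90.3% to 95.3% in LPS.

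**Figure D2:**
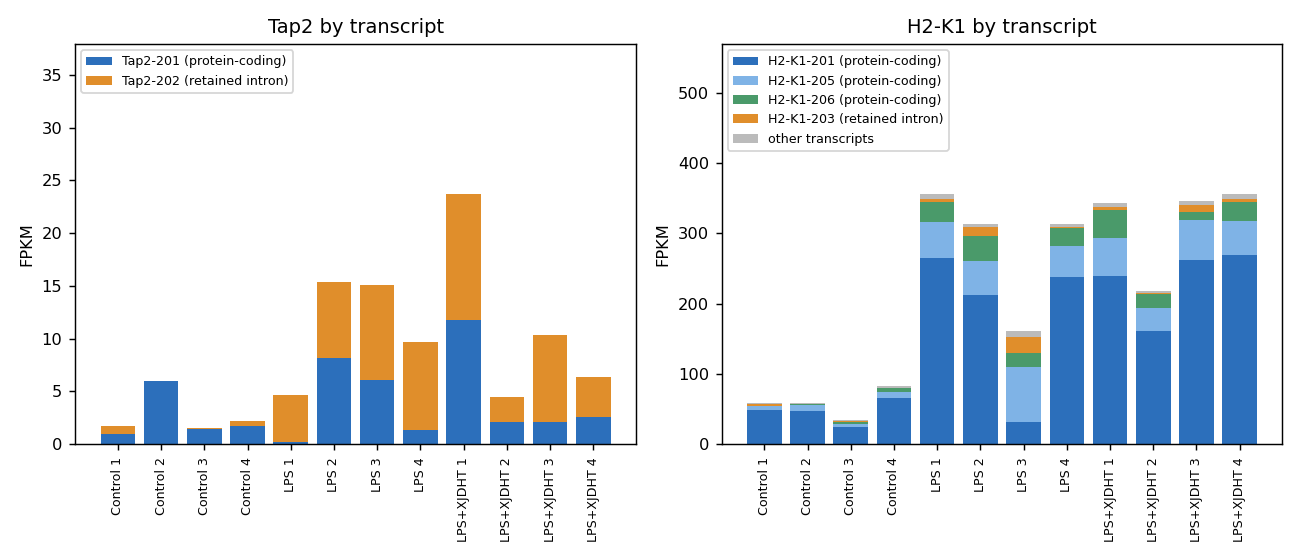
FPKM of the annotated transcripts of Tap2 (left) and H2-K1 (right) in each of the 12 libraries, stacked by transcript on linear axes from 0. In Tap2 the retained-intron transcript Tap2-202 is at most 0.740 FPKM in Control libraries and least 2.43 FPKM in the libraries of LPS-treated mice, and in H2-K1 the library LPS 3 holds 31.5 FPKM of the coding transcript H2-K1-201 against 213 to 265 FPKM in the other LPS libraries.

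The low H2-K1 value of LPS replicate 3 was likewise a matter of single transcripts. H2-K1-201 was at 31.5 FPKM there and at 265, 213 and 238 FPKM in LPS replicates 1, 2 and 4. In the same library the coding transcript H2-K1-205 was at 78.5 FPKM against 43.8 to 51.3 FPKM, and the retained-intron transcript H2-K1-203 at 22.05 FPKM against 1.25 to 12.6 FPKM. H2-K1-205 and H2-K1-203 thus stood at their highest in the library that had the least H2-K1-201 of the 4 in its group. In Tap1 the coding transcript Tap1-201 was listed at 0, 0, 1.07 and 0 FPKM in Control libraries and 4.99, 1.80, 3.87 and 2.59 FPKM in LPS, with no overlap. The coding transcript Tap1-206 did overlap, at 0.292, 0.140, 0.0435 and 1.90 FPKM in Control and 1.08, 0.998, 0.415 and 0.539 FPKM in LPS, with Control replicate 4 the highest of these 8. In H2-Q7 the coding share of the FPKM was 0% to 60.7% in Control and 43.4% to 81.1% in LPS.

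Setting LPS+XJDHT beside LPS asks whether the decoction altered these levels. None of the 8 genes was called (limma, smallest unadjusted p = 0.54, all adjusted p = 1), and 0.113% of all genes, 13 of 11500 and all 13 lower, were called in either direction. Without the adjustment 552 genes had p below 0.05. The median log2 difference was 0.07 over the 8 genes and 0.03 over all genes. The values of LPS+XJDHT and LPS libraries overlapped in each gene.

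The interval of the difference was narrowest for H2-D1, which differed by 0.06 on the log2 scale with a 95% interval of -0.28 to 0.40. B2m differed by -0.05 (-0.43 to 0.33), H2-Q4 by 0.14 (-0.34 to 0.61), Tapbp by 0.14 (-0.49 to 0.77) and H2-K1 by 0.18 (-0.46 to 0.81). A reversal of the rise seen after LPS lies outside the interval of each of these genes, whereas smaller changes in either direction lie inside. The intervals of the genes of low level were wider, -0.87 to 0.55 for Tap1, -0.84 to 1.01 for H2-Q7 and -1.21 to 0.96 for Tap2. Without LPS+XJDHT replicate 2 the differences were 0.14 for B2m, 0.24 for H2-D1, 0.33 for H2-Q4, 0.35 for H2-K1, 0.51 for H2-Q7, 0.01 for Tap1, 0.18 for Tap2 and 0.30 for Tapbp, and none was called (limma adjusted p between 0.91 and 1). The signs of B2m, Tap1 and Tap2 thus turned from negative to positive when that library was left out.

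LPS+XJDHT against Control shares its 4 Control libraries with LPS against Control. All 8 genes were called higher, against 28.5% of all genes, and 7 of 8 were higher with no overlap, against 30.2% of all genes. The log2 fold change was 2.25 for B2m, 2.45 for H2-K1, 2.27 for H2-D1, 2.52 for H2-Q4, 1.91 for H2-Q7, 1.63 for Tap1 and 2.73 for Tapbp (limma adjusted p from 1.5e-06 to 0.0041). For Tap2 it was 1.55 (limma adjusted p = 0.028), with overlapping groups. The Tap2 call was lost with median-ratio scaling (adjusted p = 0.058), with coding transcripts alone (0.56), with limma-voom (0.073), and without any of Control replicates 1, 3 and 4 or LPS+XJDHT replicates 1 and 3 (0.058 to 0.075). Without LPS+XJDHT replicate 2 all 8 were called, with a median of 2.44 in place of 2.26.

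**Figure D3:**
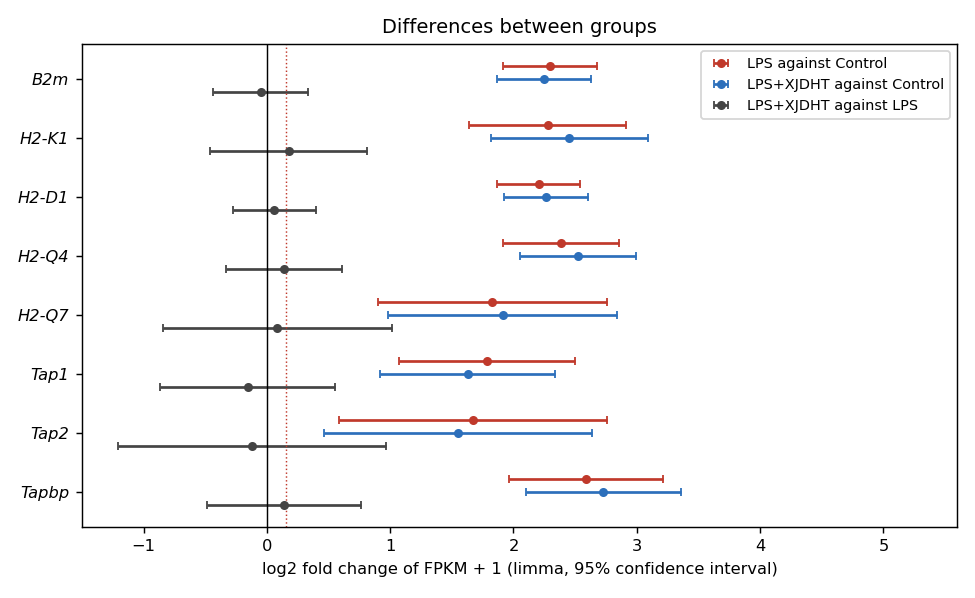
Log2 fold change of each member with its 95% interval (horizontal axis, limma on log2(FPKM + 1)) for LPS against Control (red), LPS+XJDHT against Control (blue) and LPS+XJDHT against LPS (black), with a dotted line at the median of all genes for LPS against Control, 0.16. The intervals against Control lie above 0 for every gene, with values after LPS from 1.67 for Tap2 to 2.59 for Tapbp, and those of LPS+XJDHT against LPS all span 0.

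Proportions between the members were compared by exact permutation tests, two-sided, in 18 comparisons of 6 proportions, where 4 libraries against 4 allow no p below 0.029. The ratio of B2m to the summed heavy chains was 2.01 ± 0.144 in Control, 2.05 ± 0.422 in LPS and 1.81 ± 0.0529 in LPS+XJDHT (SD, n = 4). H2-K1 made up 45.5% ± 6.51 of the heavy chain FPKM in Control, 45.7% ± 7.26 in LPS and 47.4% ± 1.22 in LPS+XJDHT, and H2-Q4 10.2% ± 0.880, 11.7% ± 1.48 and 11.8% ± 0.641. The mean ratio of light to heavy chains differed between Control and LPS by 0.03, and LPS replicate 3 at 2.67 decided its sign: without it the difference was -0.18 (exact permutation test, adjusted p = 0.73). With a library left out no difference can pass, since the smallest possible p then exceeds 0.05. No proportion passed the adjustment, the smallest being p = 0.029 by the exact test (adjusted p = 0.26) for the B2m ratio and for the H2-Q4 share in LPS+XJDHT against Control. A proportion at this lowest p passes only if many of the 18 comparisons reach it, so not passing does not show that a proportion was unchanged. Without LPS+XJDHT replicate 2 these differences were -0.19 in the ratio and 1.76 percentage points in the share, in place of -0.21 and 1.58 (adjusted p = 0.51 for both, exact permutation test). Tap1 to Tap2 was 0.564 ± 0.544 in Control, 0.707 ± 0.621 in LPS and 0.648 ± 0.402 in LPS+XJDHT, a spread too wide to compare.

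The steps before the transporter were followed with a list of 15 genes of proteasome subunits, proteasome activators and cytosolic peptidases. After LPS 8 of the 15 rose, 0 fell and 7 did not pass, with a median log2 fold change of 0.50. Among all genes 26.6% were called higher and 12.1% lower, with a median of 0.16. Psme1 and Psme2, the subunits of the PA28 activator, rose from 38.7 ± 5.63 to 96.2 ± 10.4 FPKM and from 24.9 ± 2.64 to 85.3 ± 11.5 FPKM (SD, n = 4, log2 fold changes of 1.30 and 1.73, limma adjusted p = 4e-05 and 1.9e-06). Psmb10, an inducible catalytic subunit of the immunoproteasome, rose from 13.2 ± 1.54 to 75.1 ± 15.7 FPKM (log2 fold change 2.41, adjusted p = 5.2e-05). The constitutive catalytic subunits Psmb5 and Psmb7 rose less, by 0.46 and 0.50 on the log2 scale (adjusted p = 0.00017 and 0.00016). The other inducible subunits, Psmb8 and Psmb9, named after their values were seen, rose by 1.85 and 1.32 (adjusted p = 0.0028 and 0.0059).

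Of 10 chaperones and helpers of folding and loading in the endoplasmic reticulum, 3 rose, 1 fell and 6 did not pass after LPS, with a median of 0.18. These counts lie near the shares of all genes, 26.6% higher and 12.1% lower with a median of 0.16. Those that rose were Tapbpl, the tapasin-related peptide editor TAPBPR (log2 fold change 1.14, limma adjusted p = 0.0022), Pdia3, the disulphide isomerase ERp57 bound to tapasin (0.54, adjusted p = 0.0022), and Sec61b, a subunit of the translocation channel (0.58, adjusted p = 0.039). Ganab, the alpha subunit of glucosidase II, fell from 8.59 ± 1.35 to 3.97 ± 1.08 FPKM (adjusted p = 0.0016). Calr, the chaperone calreticulin, was at 116 ± 13.4 and 134 ± 3.78 FPKM and did not pass (adjusted p = 0.083). With median-ratio scaling 2 rose and 3 fell, the Sec61b call being lost and Canx and Hspa5 added among those lower, so this list had no direction that held under both scalings.

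Other heavy chains of class I and of related molecules rose beside the members. Of 20 genes on that list 13 were in the files and 11 tested, of which 7 rose, 0 fell and 4 did not pass, with a median of 1.04 (6 rose with median-ratio scaling). The share called higher among all genes was 26.6%. H2-T23, the mouse counterpart of human HLA-E, rose from 15.7 ± 2.92 to 79.3 ± 10.4 FPKM (SD, n = 4, log2 fold change 2.27, limma adjusted p = 5.1e-06), and H2-T22, a ligand of gamma-delta T cell receptors, from 9.16 ± 1.91 to 46.3 ± 9.66 FPKM (2.22, adjusted p = 1.7e-05). H2-Q6 rose by 2.40, H2-T10 by 1.38 and H2-Q5 by 1.04 on the log2 scale. The log2 changes of H2-T23, H2-T22 and H2-Q6 lie within the range of the members, and those of H2-T10 and H2-Q5 below it. H2-T10 had a mean of 0.319 FPKM in Control, where the pseudocount compresses the log2 value, and its ratio of means was 7.58, within the 3.90 to 8.12 of the members. Both H2-T10 and H2-Q5 passed the limit of 1 FPKM through the libraries of LPS-treated mice. H2-Q5 shares sequence with H2-Q7, and H2-Q6 with H2-Q4.

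Regulators of class I expression were split. Of 27 genes 24 were in the files and 23 tested, of which 10 rose, 1 fell and 12 did not pass after LPS, with a median of 0.40 (7 rose and 1 fell with median-ratio scaling). The shares among all genes were 26.6% higher and 12.1% lower. Nlrc5, the transactivator of class I genes, rose from 0.997 ± 0.409 to 4.11 ± 1.45 FPKM (SD, n = 4, log2 fold change 1.34, limma adjusted p = 0.00093), and Rfx5, a subunit of the RFX complex with which it acts, from 0.210 ± 0.400 to 1.78 ± 0.463 FPKM (1.24, adjusted p = 0.0010). Both Nlrc5 and Rfx5 passed the limit of 1 FPKM through the libraries of LPS-treated mice. Irf7, an interferon-regulatory factor, rose by 3.56 on the log2 scale and Irf8, another, by 1.43 (adjusted p = 2.2e-07 and 0.00067). Ifnar2, a chain of the type I interferon receptor, rose by 0.89, and Ifngr2, a chain of the interferon-gamma receptor, fell by 0.53 (adjusted p = 0.00088 and 0.0021). Ifngr1, the other chain of that receptor, named after its values were seen, rose by 0.42 (adjusted p = 0.019), a call lost with median-ratio scaling (adjusted p = 0.18). Irf1, named after its values were seen as a known activator of class I genes, was at 8.07 ± 1.57 FPKM in Control and 4.69 ± 3.38 FPKM in LPS and did not pass (adjusted p = 0.15).

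Genes of class II presentation, which serves CD4 T cells and is the property of few cell types, mostly fell. Of 10 genes 8 were tested, of which 2 rose and 6 fell after LPS, also with median-ratio scaling, with a median log2 fold change of -1.41. Of all genes 26.6% were called higher and 12.1% lower. H2-Eb1 and H2-Aa, chains of class II molecules, went from 28.1 ± 6.20 to 3.35 ± 0.515 FPKM and from 37.8 ± 9.06 to 4.90 ± 2.00 FPKM (SD, n = 4, limma adjusted p = 5.9e-07 and 6.1e-06), and H2-Ab1 fell by 1.99 on the log2 scale. Cd74, the invariant chain, fell from 73.1 ± 18.0 to 15.5 ± 5.24 FPKM (adjusted p = 1.9e-05). The genes of the list that rose were Ctss, the lysosomal protease cathepsin S, and Ifi30, a lysosomal thiol reductase, with log2 fold changes of 1.48 and 1.32. The summed FPKM of the 8 class II genes was 152 to 242 in Control and 81.7 to 107 in LPS, while that of the 8 class I members was 298 to 466 in Control and 1732 to 2059 in LPS.

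In LPS+XJDHT against LPS no gene of these 5 lists was called. The groups did not overlap for H2-Q5, at means of 5.53 in LPS+XJDHT and 3.23 FPKM in LPS (limma adjusted p = 0.67). Nor did they for Canx, at 74.9 and 68.9 FPKM (adjusted p = 0.99), and Rela, lower at 11.3 and 15.2 FPKM (adjusted p = 0.96). Of all 11500 genes 225 were higher and 99 lower without overlap. The list medians lay between -0.14 for class II and 0.13 for the other heavy chains, beside 0.03 for all genes. Without LPS+XJDHT replicate 2 again no gene was called, and the medians were 0.27 for the other heavy chains, 0.11 for the loading chaperones, 0.02 for peptide supply, 0.04 for the regulators and -0.07 for class II. In LPS+XJDHT against Control 11 of 15 peptide supply genes, 5 of 10 loading chaperones, 8 of 11 other heavy chains, 9 of 23 regulators and 2 of 8 class II genes rose, and 0, 1, 0, 2 and 5 fell. Of all 11500 genes 28.5% were called higher and 1234 genes lower. With median-ratio scaling 6 of the 15 peptide supply genes and 2 of the 10 loading chaperones rose in this comparison, and without LPS+XJDHT replicate 2 it was 8 and 4, with 8 other heavy chains, 9 regulators and 2 class II genes higher.

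**Figure D4:**
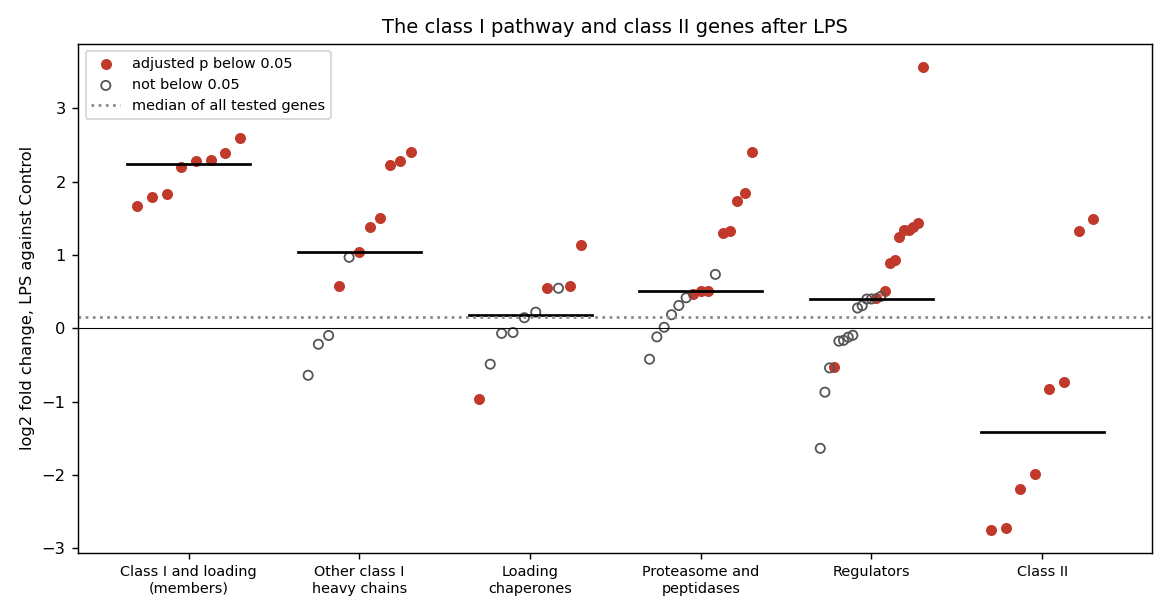
Log2 fold change for LPS against Control (vertical axis, limma on log2(FPKM + 1)) of each tested gene, 1 point per gene, in the members and 5 lists of related genes, filled where the adjusted p was below 0.05, with the list median as a bar and the median of all genes dotted. The 8 members lie between 1.67 and 2.59 around a median of 2.24, and the medians of the lists lie between -1.41 for class II and 1.04 for the other heavy chains.

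Cell type markers moved in the same comparison. Summed FPKM of 5 leukocyte markers was 26.2 to 49.9 in Control, 53.8 to 73.3 in LPS and 42.8 to 64.9 in LPS+XJDHT. The 6 neutrophil markers in the files, of 7, summed to 1.23 to 2.72 FPKM in Control and 78.8 to 117 FPKM in LPS, and the 3 monocyte markers in the files, of 5, to 0.184 to 4.48 and 23.4 to 30.5 FPKM. These 3 sums, of markers of cells that carry class I molecules themselves, were thus higher in every LPS library than in any Control library. Single markers did not all follow: 3 of 5 leukocyte, 5 of 5 tested neutrophil and 2 of 3 monocyte markers rose, beside 26.6% of all genes. Ptprc, Tyrobp and Ly6c2 overlapped between the groups and did not pass. The 5 neutrophil markers and the monocyte markers Plac8 and Chil3 passed the limit of 1 FPKM in 4 libraries only with those of LPS-treated mice counted. S100a9 and S100a8 did reach 1 FPKM in some Control libraries, at up to 1.51 and 1.00 FPKM, but not in 4 of them. Csf3r, below 1 FPKM in every library, was not tested, so the filter favoured markers that rose. The 8 macrophage markers summed to 145 to 228 FPKM in Control and 149 to 363 FPKM in LPS, the 7 endothelial markers to 147 to 178 and 153 to 215 FPKM, both with overlap. Of the macrophage markers 1 rose, Cd68, from a mean of 6.00 to 16.2 FPKM, and of the endothelial markers 0. Among the latter, Pecam1 did not pass (limma adjusted p = 0.064). It was higher in every LPS library than in any Control library, at means of 47.2 and 27.3 FPKM. The 6 vessel wall (mural) markers summed to 246 to 287 FPKM in Control and 180 to 253 FPKM in LPS, with overlap. Of these 6, 2 fell, Rgs5 from a mean of 147 to 72.1 FPKM and Myh11 from 6.13 to 2.10 FPKM, and 4 did not pass. The 7 fibroblast markers summed to 405 to 501 FPKM in Control and 763 to 1005 FPKM in LPS, a sum set largely by Dcn, which went from a mean of 304 to 651 FPKM. Of these 7 fibroblast markers 4 rose and 3 did not pass, among them Lum, lower in every LPS library than in any Control library at means of 23.8 and 37.1 FPKM. Col1a2, which also did not pass, had means of 27.6 FPKM in Control and 6.97 FPKM in LPS, with overlap. No marker in the files was at 0 in all 12 libraries. Of the T and natural killer cell markers 2 of 11 were in the files, Gzma and Gzmb, with a sum of at most 0.458 FPKM in Control and 2.05 to 4.29 FPKM in LPS. Of 6 dendritic markers 2 were in the files, summing to 4.80 to 5.82 FPKM in Control and 3.09 to 5.44 FPKM in LPS, and of 5 B cell markers 1, at 0.164 to 1.33 and 0 to 1.06 FPKM. The part of any of these cells in the class I values was not tested.

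The genes whose course over the 8 libraries of LPS-treated mice lay nearest to the members' median, by mean absolute log2 difference among 6773 genes outside the members, were H2-T23 at 0.07, Bst2 at 0.12, Spon1 at 0.14, Il4ra, Cp and Mt1 at 0.17, and Socs3 and Ifitm1 at 0.19. Bst2 and Ifitm1 are known as interferon-induced membrane proteins, Cp is the copper carrier ceruloplasmin, Mt1 a metallothionein and Socs3 an inhibitor of cytokine signalling. Bst2 rose from 20.6 ± 2.04 to 99.97 ± 3.90 FPKM and Mt1 from 239 ± 17.9 to 1016 ± 130 FPKM (SD, n = 4). Of the members themselves H2-D1 and B2m lay at 0.06 from the median, H2-Q4 at 0.20, H2-K1 at 0.24, Tapbp at 0.46, H2-Q7 at 0.49, Tap1 at 0.56 and Tap2 at 0.74, so the genes of low level strayed farthest from it. These distances are a description over 8 libraries.

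Among the libraries, LPS+XJDHT replicate 2 stood lowest in its group for all 8 members, by a median of 0.73 on the log2 scale below the mean of its other 3 libraries and by 0.66 to 1.69 in the single genes. The same difference over all genes had a median of 0.01, and this library was the lowest of its group in 29.2% of them. The other heavy chains were lower there as well, with a median difference of -0.45, while the regulators stood at -0.12, peptide supply at -0.09 and the loading chaperones at -0.03. Most immune markers were lower in the same library, with medians of -0.56 for neutrophils, -0.51 for macrophages, -0.48 for monocytes and -0.43 for leukocytes. The 1 tested T and natural killer cell marker stood at -1.39, class II genes at -0.22 and dendritic markers, higher, at 0.13. Fibroblast markers were lower at -0.34, vessel wall (mural) markers stood at 0.00 and endothelial markers at 0.16. The endothelial marker Pecam1 was nonetheless the lowest of its group there, at 17.8 FPKM against 48.5, 58.2 and 47.3 FPKM in LPS+XJDHT replicates 1, 3 and 4. Cardiomyocyte markers were higher at 0.43, though Pln was the lowest of its group there at 260 FPKM. Their part in the low class I values of this library was not tested. In Control, replicate 3 was lowest in 7 of the 8 members and replicate 4 highest in 6 of the 8.

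**Figure D5:**
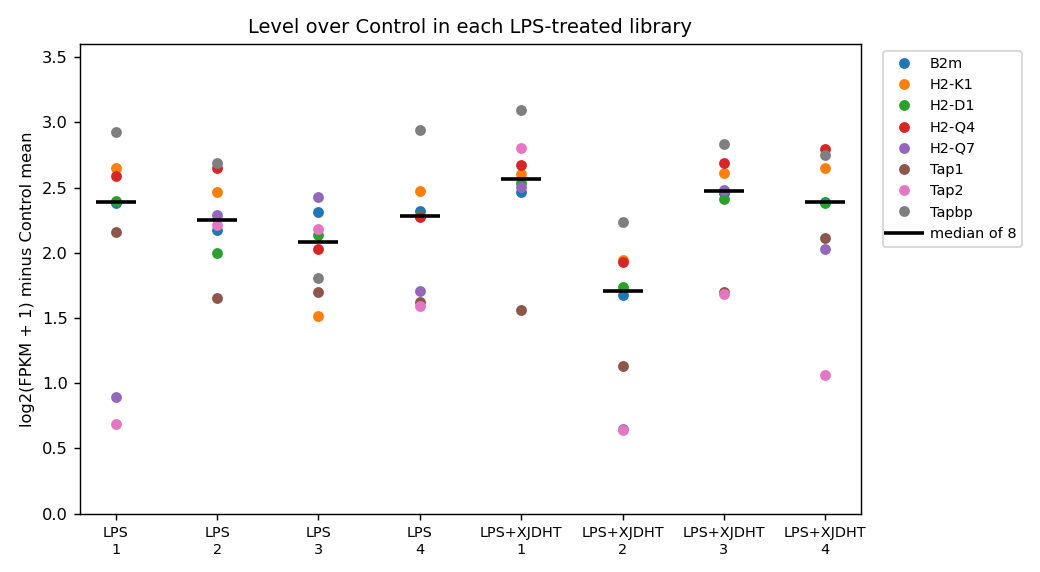
log2(FPKM + 1) of each member minus its Control mean (vertical axis) in the 4 LPS and 4 LPS+XJDHT libraries, 1 coloured point per gene, with the median of the 8 genes as a bar. The median is 1.71 in LPS+XJDHT replicate 2 and between 2.08 and 2.57 in the other 7 libraries, and Tapbp is at or near the top of most libraries except LPS 3.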

How the data were processed

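Heart RNA of 12 mice was measured in 3 groups of 4, taken from the labels. Replicates are numbered 1 to 4 within each group in the order of the samples, numbers that tie no mouse to one of another group, so nothing was paired, and p-values measure the spread between these libraries. The deposited values, 1 for each transcript in each library, were read as FPKM made by the authors, because multiplying them by the annotated length gave whole multiples (within 0.1) of a library constant for 98.9% to 99.3%. The submitters' processing notes name the build mm10 and limma. Which aligner and quantifier were used is not given in the sources used here. Files of Control and LPS list 36293 transcripts and the LPS+XJDHT files 35802, with 33137 in all. In the Control and LPS files each listed transcript has a mean of at least 0.5 FPKM in 1 of both groups. The 24712 annotated ones (GENCODE, GRCm38) were summed per gene, and 8377 unnamed ones were left out.

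Values were log2-transformed after adding 1. Genes reaching 1 FPKM in 4 or more libraries were fitted in 1 model of 3 groups with limma 3.58.1 (empirical Bayes with trend, R 4.3.3), adjusted by Benjamini-Hochberg over all 11500 genes, threshold 0.05. In simulated data for LPS against Control with 11500 genes, 94 of 100 genes changed by 2 and 62 of 100 changed by -1 on the log2 scale were recovered, with 7 false calls. The changed genes had a Control mean log2(FPKM + 1) of at least 2, which H2-Q7, Tap1, Tap2 and Tapbp did not reach. Far fewer genes were changed than were called in the data. Python 3.11.15, NumPy 2.4.6, pandas 2.3.3, SciPy 1.17.1 and matplotlib 3.10.9 did the rest.

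The members and lists were chosen with earlier results of these data known. Named genes are all members, up to 5 tested genes per list, by smallest adjusted p after LPS, and every gene called against its list's direction, and the 8 genes, among those whose mean reached 5 FPKM in some group, that lie nearest the members' median. Alternatives were pseudocounts of 0.1 and 0.5, no filter, a limit of 5 FPKM, sample quality weights, the compared groups alone, limma-voom on recovered fragments, median-ratio scaling, coding transcripts alone, every transcript in the Control and LPS files, pooled heavy chains, and leaving out each library. Some genes were not analysed here.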

Additional observations from a re-analysis of the deposited data

Results flagged for a closer look

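Among 45 groups of 4 libraries examined, 9 had an end library whose gap to the nearest other was over Dixon's 95% limit, as a share of the group's range. Chance flags about 1 in 20 groups, and the groups share genes and libraries. In 3 of the 9 the library was LPS+XJDHT replicate 2, low in B2m at 795 FPKM, in H2-K1 at 218 FPKM and in the 4 summed heavy chains at 451 FPKM. LPS replicate 3 stood apart in a B2m to heavy chain ratio at 2.67 and in the H2-K1 share of the heavy chains at 34.9%. LPS replicate 1 was high in Tap1 at 7.65 FPKM and in the ratio of Tap1 to Tap2 at 1.63. In Control, replicate 4 was high in H2-Q7 at 1.32 FPKM and replicate 2 in Tap2 at 6.00 FPKM.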

How the results depend on the processing

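In LPS against Control, 7 of the 8 members, all but Tap2, were called higher under each of 23 alternatives, and in LPS+XJDHT against Control under each of 22. Tap2 was called in 18 of 23 and 14 of 22, its log2 fold change ranging from 0.25 to 2.01 and from 0.57 to 1.88. No member was called in LPS+XJDHT against LPS under any of 22 alternatives. Over all genes that comparison gave 13 calls, 43 with no filter (2 higher, 41 lower), 1 with the limit of 5 FPKM, 14 with limma-voom and 4 to 16 when 1 library was left out, namely 4, 5, 7 and 4 without LPS replicates 1 to 4. LPS against Control gave 4450 calls and 3770 to 4601 with 1 library left out. LPS+XJDHT against Control gave 4510, split 3276 higher and 1234 lower, and with median-ratio scaling 1943 higher and 2065 lower. No member and no proportion changed sign while called. Of the listed genes, Canx did in LPS+XJDHT against Control. It went from 0.05, not called, to -0.20 with median-ratio scaling (limma adjusted p = 0.029). The cause of these shifts was not tested. No paired analysis was possible because the replicate numbers used here only follow the order of the samples within a group and the labels tie no sample to one of another group. Depth limits the genes near 1 FPKM, H2-Q7 and Tap1 in Control, whose fold changes depend on the pseudocount: with 0.1 in place of 1 they were 2.67 and 2.71.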

Other observations

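Of the annotated transcripts of the members, H2-Q7-203 and Tap1-203 were listed for the LPS+XJDHT libraries but not for the Control and LPS libraries, and so entered no sum. The protein-coding H2-Q7-203 was at 0.726, 0, 0.755 and 0.888 FPKM in LPS+XJDHT replicates 1 to 4, listed at 0 in replicate 2. The retained-intron transcript Tap1-203 was at 0.824, 0.953, 0.769 and 0.832 FPKM.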
